A study of Homo sapiens with 9 samples.

Results

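The HOX cluster genes of NT2 cells were examined on 9 one-colour Agilent expression arrays. The members were all non-control probes whose gene name on the array was HOX followed by the cluster letter A, B, C or D and a gene number. This rule found 43 probes for 39 genes, among 42405 probes and 34623 gene names on the array. NT2 (hNT2) is an established human embryonal carcinoma line that starts a neural programme when it is given retinoic acid. All 9 cultures, the control ones included, received 10 µM retinoic acid for 4 days, so there was no culture without retinoic acid to compare with. The control group had no organophosphate, the paraoxon group had 1 µM paraoxon and the mipafox group had 5 µM mipafox, with 3 arrays, named A, B and C, in each. Paraoxon is an organophosphate that does not cause delayed neuropathy, and mipafox is one that does. The doses differed, so the responses to the compounds are given side by side. The methods call the replicates technical and the series design calls them biological, so the p-values measure only the spread between these samples.

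HOX genes code for homeodomain transcription factors that set position along the head to tail axis of the embryo. They lie in 4 clusters, and within a cluster the gene number runs from the 3′ end (1) to the 5′ end (13). Genes at the 3′ end are known to be switched on earlier and in more anterior tissue than genes at the 5′ end, and retinoic acid is known to activate the 3′ genes first, through retinoic acid receptors bound near them. In the hindbrain the genes of paralog groups 1 to 4 mark the rhombomeres. Genes at the 5′ end pattern the trunk, the tail and the limbs.

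The arrays lay on 2 slides, each scanned in its own run. Mipafox A shared slide 1 with all of the control arrays, whereas mipafox B and C shared slide 2 with all of the paraoxon arrays. Paraoxon and control therefore shared no slide, and for this pair slide and treatment cannot be told apart except through the mipafox arrays. Per array, 65.7% to 73.6% of probes were well above background. All 10 embryonal carcinoma markers, POU5F1 and NANOG among them, had a probe well above background on all 9 arrays, as did 7 of 8 neural progenitor markers, 4 of 6 neuron markers and 6 of 8 retinoic acid response markers. Of the markers of other lineages, 1 of 4 for endoderm (FOXA2) and 2 of 5 for mesoderm and blood (MESP1 and PTPRC) were well above background on all 9 arrays, and T (brachyury) was on none. The arrays measured whole cultures, in which fewer cells of a type and less RNA per cell cannot be told apart.

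The probes that the results turn on are shown here by the first 30 of their 60 bases, 5′ to 3′, with no part in capitals. They are the 3 HOX probes with an unadjusted p under 0.05, and both probes of HOXA9 and of HOXA10, which differed in detection. Positions are those of the files, on hg19, which give the gene of a probe but not its exon.
HOXD8, A_23_P210164, chr2:176996109-176996168: ggaatttctttttaacccctatctgaccag
HOXA5, A_23_P93772, chr7:27181547-27181606: acccgcagaaggaggattgaaatagcacat
HOXB1, A_23_P118675, chr17:46607916-46607975: tactaccctctgggtcaatcagaaggagac
HOXA9, A_23_P500998, chr7:27202588-27202647: aaacagttgcatagagtatagctctgtagt
HOXA9, A_33_P3416231, chr7:27203145-27203204: tagaaaaaagggtaagctagagagaaaaag
HOXA10, A_24_P77904, chr7:27211235-27211294: gccatatcatgctaaaattctatagagata
HOXA10, A_33_P3288649, chr7:27211789-27213023: gctctccccggccccttccgagagcagcaa

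In these cells the HOX genes near the 3′ end of their clusters were detected more often than those near the 5′ end. Of the 39 genes, 24 had a probe well above background on all 9 arrays, 5 on some arrays and 10 on none. Of the 12 genes at positions 1 to 4, 11 were detected on all 9 arrays, and the other, HOXD4, on 8. Of the 11 genes at positions 5 to 8, 6 were detected on all 9 arrays and 2 on none. Of the 16 genes at positions 9 to 13, 7 were detected on all 9 arrays and 8 on none. This is a description of detection, since levels of different probes cannot be set against each other.

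**Figure D1:**
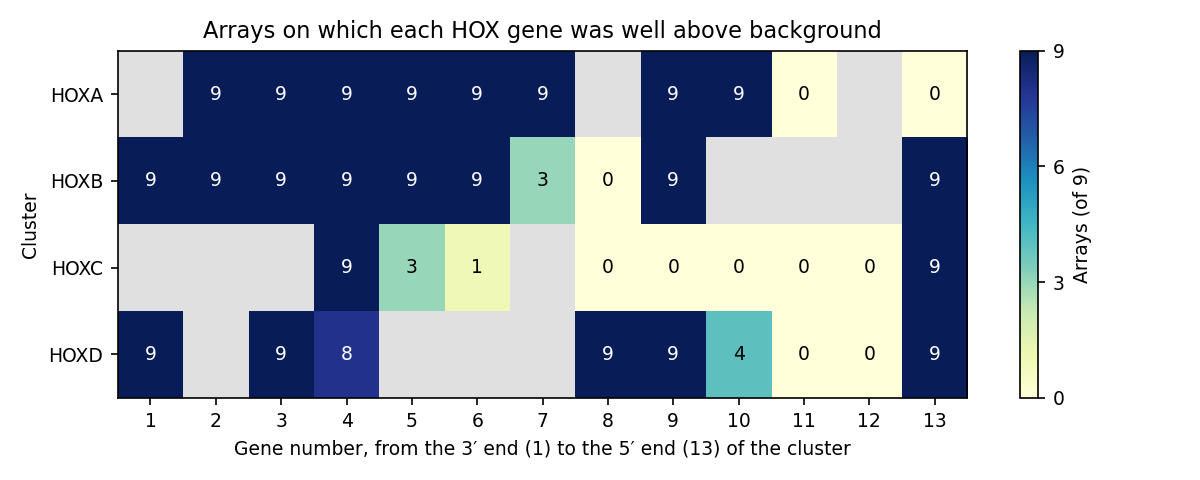
Number of arrays, of 9, on which the best probe of each HOX gene was well above background, by cluster (rows) and gene number from the 3′ end (columns); grey cells have no gene on the array or are not shown. The cells shown at positions 1 to 4 are at 8 or 9, and the HOXC cluster is at 0 from HOXC8 to HOXC12.

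The clusters differed in how far detection reached. In the HOXA cluster 9 of 11 genes were detected on all 9 arrays, HOXA10 being the most 5′ of them, and HOXA11 and HOXA13 were detected on none. In the HOXB cluster it was 8 of 10 genes, with HOXB7 on 3 arrays and HOXB8 on none, while HOXB9 and HOXB13 were detected on all 9. The HOXC cluster was detected least, at 2 of 9 genes, HOXC4 at its 3′ end and HOXC13 at its 5′ end. HOXC5 was well above background on 3 arrays, HOXC6 on 1 and the other 5 genes on none. In the HOXD cluster 5 of 9 genes were detected on all 9 arrays, namely HOXD1, HOXD3, HOXD8, HOXD9 and HOXD13. HOXD10 was detected on 4 arrays, and HOXD11 and HOXD12 on none. In HOXB, HOXC and HOXD the most 5′ gene was thus detected while genes on its 3′ side were not. For HOXB this depended on the rule of detection, and for HOXC and HOXD the rule changed which genes were missed. HOXB7 and HOXB8 exceeded the mean plus 3 SD of the negative control spots on 8 arrays, and HOXC5, HOXC6 and HOXD10 on 9. By that limit HOXC8 to HOXC12 were on 0 to 2 arrays, HOXD11 on 5 and HOXD12 on 1. HOXC13 and HOXD13 were on 9, so in HOXC and HOXD the pattern held under both rules.

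The detection of HOXA9 and HOXA10 depended on the probe. For HOXA9, probe A_33_P3416231 was well above background on 9 arrays and probe A_23_P500998 on 0. For HOXA10, probe A_33_P3288649 was well above background on 9 arrays and probe A_24_P77904 on 0. The detected HOXA10 probe is annotated over 1235 bases for 60 bases of sequence, so it crosses a gap in the genome. For HOXD9 the probes were at 9 and 6 arrays, and for HOXB2 both were at 9. Statements on HOXA9 and HOXA10 below are about the detected probe alone. HOXA9 was named for this difference after its values were seen.

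The first question was whether either organophosphate changed HOX transcript levels during early differentiation. No HOX probe was called against control in either comparison by limma, at an adjusted p under 0.05 with a log2 fold change beyond 1. The share called among all 29134 tested probes was also 0% for paraoxon and 0% for mipafox. The 26 HOX probes tested stood for 25 genes, since a probe was tested only where all 3 arrays of a treatment had it well above background. At an unadjusted p under 0.05, 3 of the 26 were lower and 0 higher with paraoxon, against 13.3% of all tested probes in either direction and 6.01% lower. With mipafox it was again 3 lower and 0 higher, against 7.04% of all tested probes in either direction and 3.91% lower. The mipafox count was 1 (3.7% to 3.85%) without control A, control B or mipafox B, beside 8.19%, 3.76% and 4.01% of all tested probes. Without mipafox A it was 5 (18.5%), beside 12.9%. The 3 probes were HOXD8, HOXA5 and HOXB1 in both comparisons, which share their control arrays. As a share, 3 of 26 is 11.5%, below the paraoxon background in either direction and above the other 3 backgrounds.

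Values below are log2 signals relative to the 75th percentile of the array, so that 0 equals that percentile and each unit is a 2-fold step. HOXD8 codes for a homeodomain factor from the middle of its cluster. It was at -1.96, -2.02 and -2.06 in control, at -2.71, -2.75 and -2.70 with paraoxon, and at -2.64, -2.41 and -2.41 with mipafox. All 6 exposed arrays were below all 3 control arrays. The log2 fold change was -0.71 with paraoxon (95% CI -0.99 to -0.42, limma adjusted p = 0.0763), which is 61.3% of control. Without mipafox A in the fit the paraoxon value had a limma adjusted p = 0.0295. Without 1 control or paraoxon array in turn, the smallest limma adjusted p of any HOX probe with paraoxon lay between 0.174 and 0.297. With mipafox the log2 fold change of HOXD8 was -0.47 (95% CI -0.76 to -0.19, limma adjusted p = 0.452), or 72.1% of control. Within slide 1, mipafox A differed from the control mean by -0.63, and within slide 2 paraoxon differed from mipafox B and C by -0.31. With slide as a block the paraoxon value was -0.94 (SE 0.20, limma adjusted p = 0.595) and the mipafox value was -0.63 (SE 0.16, limma adjusted p = 0.595).

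HOXA5 codes for a homeodomain factor that is known for its part in the cervical and thoracic region. It was at -0.01, -0.01 and -0.15 in control, at -0.67, -0.61 and -0.59 with paraoxon, and at -0.21, -0.52 and -0.53 with mipafox. Again no exposed array reached the control arrays, but mipafox A, the exposed array on slide 1, lay nearest to them. The log2 fold change was -0.57 with paraoxon (95% CI -0.88 to -0.26, limma adjusted p = 0.120) and -0.36 with mipafox (95% CI -0.67 to -0.05, limma adjusted p = 0.639). Within slide 1 mipafox A differed from the control mean by -0.15, and within slide 2 paraoxon differed from mipafox B and C by -0.10. Between the slides, the mean of mipafox B and C minus mipafox A was -0.32. With slide as a block the values moved to -0.25 (SE 0.20) for paraoxon and -0.15 (SE 0.16) for mipafox.

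HOXB1 is the paralog group 1 gene that marks rhombomere 4 and is a known direct target of retinoic acid. It was at -2.83, -2.65 and -2.71 in control, at -3.14, -3.34 and -4.24 with paraoxon, and at -3.21, -3.60 and -3.35 with mipafox. The exposed arrays were all below the control arrays, and paraoxon C lay well below the other 8. The log2 fold change was -0.84 with paraoxon (95% CI -1.44 to -0.25, limma adjusted p = 0.207) and -0.66 with mipafox (95% CI -1.25 to -0.06, limma adjusted p = 0.674). Without 1 array in turn the paraoxon value ranged from -1.06 to -0.51. Within slide 1 mipafox A differed from the control mean by -0.48, and with slide as a block the paraoxon value was -0.57 (SE 0.49).

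**Figure D2:**
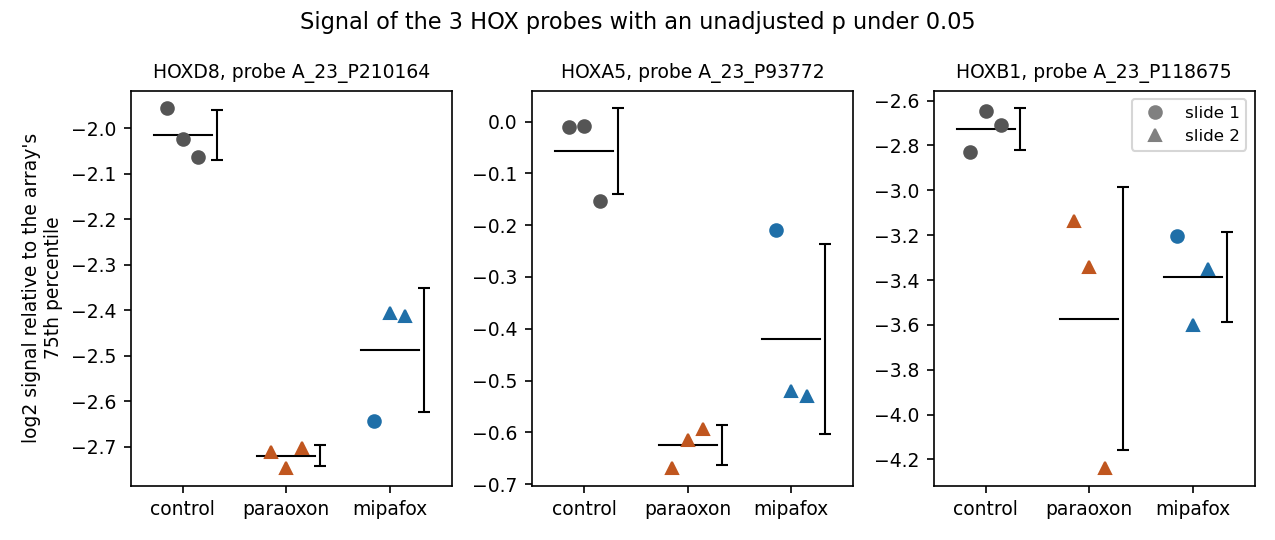
Log2 signal relative to the 75th percentile of the array for HOXD8, HOXA5 and HOXB1 in each of the 9 arrays, with circles for slide 1 and triangles for slide 2; horizontal lines are treatment means and bars are SDs (n = 3). All exposed arrays lie below all control arrays for each gene, and for HOXA5 the mipafox array on slide 1, at -0.21, is the nearest to control.

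Counts of probes whose arrays did not overlap with control are another reading of the same values and no separate support. The probes wholly below control were the same 3 genes. With paraoxon 3 of 26 HOX probes lay wholly below control, against 11.1% of all tested probes, and 0 lay wholly above, against 12.3%. With mipafox 3 lay wholly below, against 6.23% of all tested probes. For mipafox 2 lay wholly above, against 5.62%, and these were HOXB4 and HOXB5. HOXB5 was at 1.16, 1.17 and 1.20 in control and at 1.35, 1.44 and 1.57 with mipafox, a log2 fold change of 0.28 (SE 0.13, limma adjusted p = 0.730). HOXB4 had the smaller log2 fold change, 0.17 (SE 0.12, limma adjusted p = 0.858). Both genes were picked for these values, and neither passed the test.

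At the 3′ end of its cluster, HOXD1, a paralog group 1 gene like HOXB1, was at 3.15, 3.56 and 3.64 in control, at 3.50, 3.74 and 3.74 with paraoxon and at 3.48, 3.37 and 3.75 with mipafox. The groups overlapped. The log2 fold change of HOXD1 was 0.21 (SE 0.18) with paraoxon and 0.08 (SE 0.18) with mipafox.

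At the 5′ end, HOXB13, a gene known from the tail and the prostate, was at -1.78, -1.70 and -1.69 in control, at -1.74, -1.82 and -1.64 with paraoxon and at -1.48, -2.00 and -2.13 with mipafox. HOXC13, known from hair and nail, was at -4.57, -4.32 and -4.34 in control, at -4.69, -4.68 and -3.92 with paraoxon and at -4.96, -4.64 and -4.36 with mipafox. HOXD13, known from the digits, was at -3.62, -3.41 and -3.28 in control, at -3.29, -3.39 and -3.17 with paraoxon and at -3.23, -3.17 and -3.37 with mipafox. The groups overlapped for all 3 genes. Their log2 fold changes lay between -0.25 and 0.18, with limma adjusted p-values from 0.720 to 0.992. The slide block turned HOXB13 from -0.01 to 0.57 with paraoxon (SE 0.21, limma adjusted p = 0.604). It moved HOXC13 from -0.02 to -0.48 with paraoxon (SE 0.40) and from -0.25 to -0.56 with mipafox (SE 0.32).

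Over all 26 tested HOX probes the median log2 fold change was -0.02 with paraoxon, with 9 higher and 17 lower, beside a median of 0.01 over all tested probes. With mipafox it was -0.003, with 12 higher and 14 lower, beside 0.006 over all tested probes. Without HOXD8, HOXA5 and HOXB1 the 23 other probes ranged from -0.40 (HOXB2) to 0.86 (HOXA10) with paraoxon. With mipafox they ranged from -0.30 (HOXA9) to 0.70 (HOXA6). None of the 23 had an unadjusted p under 0.05, and 12 of the 26 differed from control by less than 1 SE in both comparisons. By position, the paraoxon medians were -0.06 at positions 1 to 4 (13 probes), -0.13 at 5 to 8 (6 probes) and -0.01 at 9 to 13 (7 probes). The mipafox medians were -0.001, 0.05 and -0.005 in the same order. By cluster, the paraoxon medians were -0.10 for HOXA (9 probes), -0.01 for HOXB (9), 0.01 for HOXC (2) and -0.01 for HOXD (6), and the mipafox medians were -0.01, -0.11, -0.006 and 0.13.

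These medians depended on whether slide was in the fit. With slide as a block the HOX median was 0.28 for paraoxon and 0.26 for mipafox, beside 0.11 and 0.07 over all tested probes. In that fit 3 HOX probes had an unadjusted p under 0.05 in each comparison, of which 2 were higher, so 11.5% of the HOX probes, beside 8.07% of all tested probes with paraoxon and 5.56% with mipafox. The split turned round, with 18 HOX probes higher and 8 lower with paraoxon, and 19 and 7 with mipafox. The HOXA median was 0.44 with paraoxon and 0.31 with mipafox, the HOXB median 0.23 and 0.24, the HOXC median 0.11 and 0.06, and the HOXD median 0.14 and 0.12. By position, the paraoxon medians were 0.23 at positions 1 to 4, 0.29 at 5 to 8 and 0.57 at 9 to 13, and the mipafox medians 0.28, 0.31 and 0.24. Without the block the paraoxon split also depended on the arrays, at 17 higher and 9 lower without paraoxon B and 13 and 13 without control B, as it was with the authors' values. The mipafox split was 18 higher and 8 lower without mipafox C. The mipafox value of the block fit rests on mipafox A alone, the only exposed array on slide 1. The paraoxon value rests on mipafox A as well, since paraoxon and control shared no slide. The median HOX deviation of mipafox A from its treatment mean was 0.20. A slide effect cannot be told apart from a difference of this array.

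**Figure D3:**
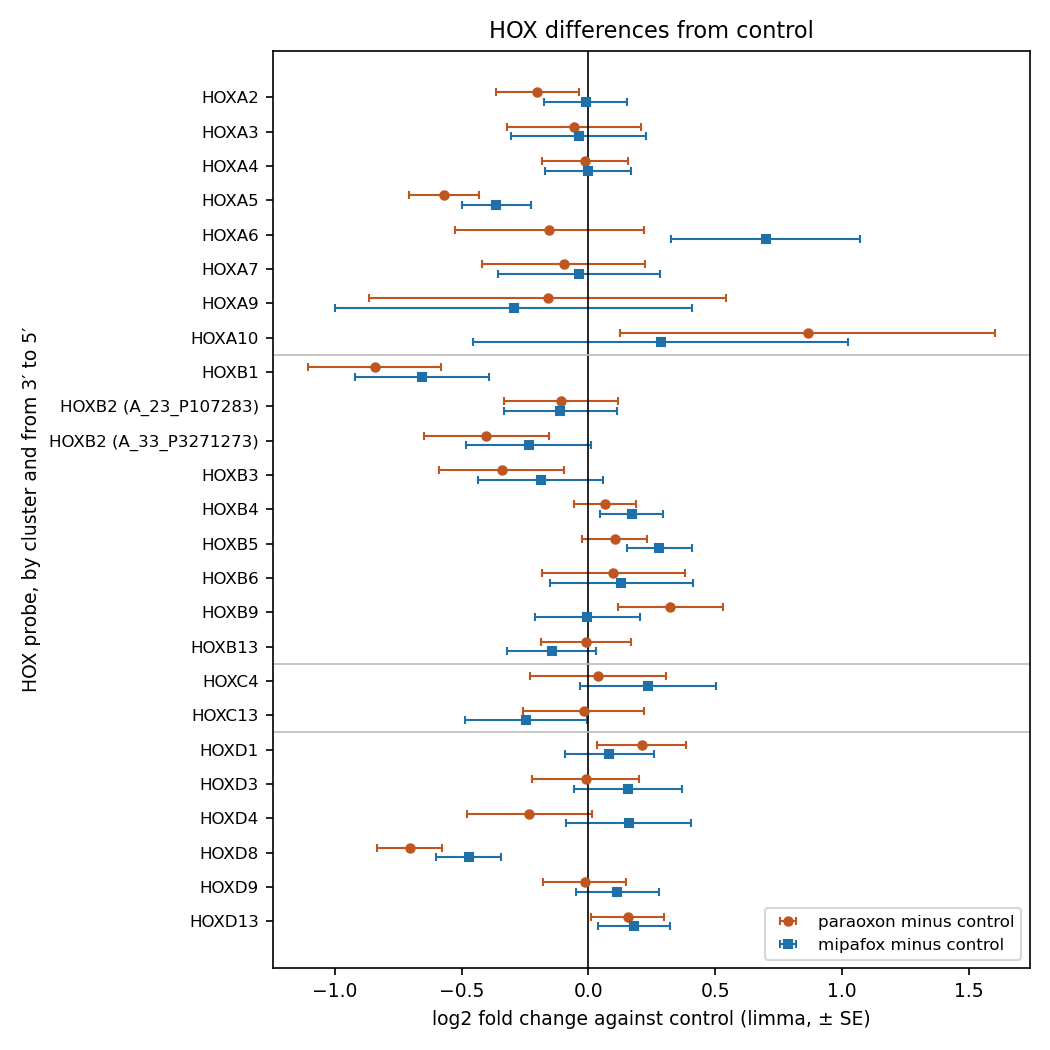
Log2 fold change against control (x axis, ± SE from limma) of 25 of the 26 tested HOX probes, ordered by cluster and from 3′ to 5′, for paraoxon (circles) and mipafox (squares). Most values lie within 1 SE of 0; HOXD8, HOXA5 and HOXB1 lie to the left of it with both compounds, and HOXA9 and HOXA10 have the widest errors.

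The detected probes of HOXA10 and HOXA9 varied most between replicates. HOXA10 was at 2.19, 1.09 and 0.42 in control, at 2.69, 1.02 and 2.58 with paraoxon and at 2.13, 2.53 and -0.12 with mipafox. HOXA9 was at -1.19, -1.92 and -2.64 in control, at -1.18, -3.28 and -1.77 with paraoxon and at -1.21, -1.76 and -3.66 with mipafox. For both genes the lowest arrays were control C, paraoxon B and mipafox C. The pooled SD within treatments was 1.11 for HOXA10 and 1.06 for HOXA9, beside a median of 0.25 over all tested probes, and 98.9% and 98.8% of tested probes had a smaller one. The HOXA10 log2 fold change of 0.86 with paraoxon had an SE of 0.74 (limma adjusted p = 0.691). It ranged from 0.46 to 1.40 with 1 array left out, and was 1.79 (SE 1.37) with slide as a block.

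The same arrays were the lowest of their treatment at 9 of the 26 HOX probes (34.6%). Of these, 7 were among the 9 HOXA probes. Both counts include HOXA9 and HOXA10, by which the arrays were named, so that choice raises the HOX share. Over all tested probes with a value on every array, these 3 arrays were the lowest at 21.2%, so the pattern was not limited to HOX genes. The replication-dependent histone genes moved with it. The median deviation of their 74 tested probes from the treatment mean was 0.66, -0.03 and -0.65 in control A, B and C. It was 0.09, -0.78 and 0.66 in paraoxon A, B and C, and 0.92, 0.26 and -1.20 in mipafox A, B and C. The median deviation of the HOXA probes was -0.13 in control C, -0.32 in paraoxon B and -0.60 in mipafox C, and 0.33 in mipafox A. Whether the property behind the histone values had a part in the HOX values was not tested. Without these 3 arrays, an alternative chosen after seeing the data, 0 HOX probes were called, and of 27 tested, 4 had an unadjusted p under 0.05 with paraoxon (14.8%, beside 11.4% of all tested probes) and 2 with mipafox (7.41%, beside 6.04%).

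**Figure D4:**
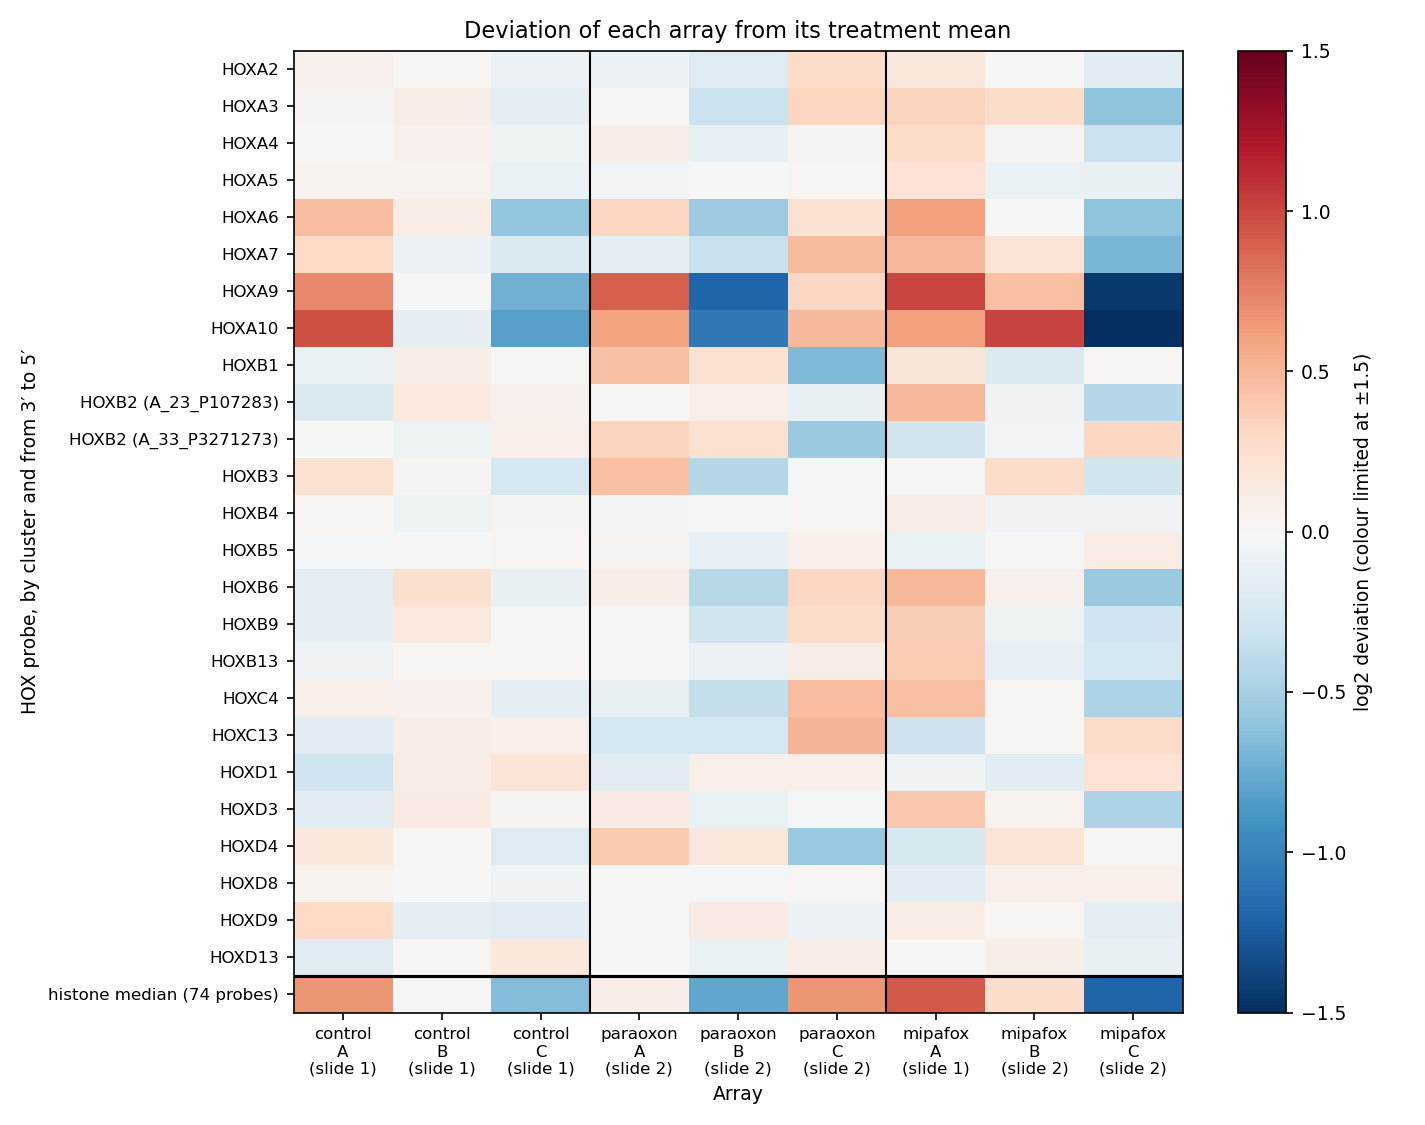
Deviation of each array from the mean of its treatment (colour, log2) for 25 of the 26 tested HOX probes, with the median of 74 histone probes in the bottom row. Control C, paraoxon B and mipafox C are low at HOXA9 and HOXA10, and their histone medians are -0.65, -0.78 and -1.20.

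Promoter sequence was looked at for the 3 genes with the smallest p. The RefSeq windows on GRCh38.p14, 250 bases before to 50 after each gene's start, held 27 windows for 20 of the HOX genes. HOXA5 was not among them. Letters were searched on both strands: TGATNNAT, a site that PBX and HOX proteins bind together, AGGTCA and AGTTCA, the half-sites of retinoic acid receptors, and TTTATNG, a site of CDX and posterior HOX proteins. TGATNNAT was in 3 HOX windows (HOXA2, HOXB1 and HOXD11) and in 7.4% of all windows. AGGTCA was in 0 HOX windows and in 13.8% of all, AGTTCA in 6 and 10.4%, and TTTATNG in 7 and 9.73%. The 250 bases before the start follow for HOXB1 and HOXD8, with the matches in capitals: TGATNNAT in HOXB1, and TTTATNG and the reverse complement of AGTTCA in HOXD8. A match is a description of the letters and not a site of binding.
HOXB1, chr17:48531012-48531261, minus strand: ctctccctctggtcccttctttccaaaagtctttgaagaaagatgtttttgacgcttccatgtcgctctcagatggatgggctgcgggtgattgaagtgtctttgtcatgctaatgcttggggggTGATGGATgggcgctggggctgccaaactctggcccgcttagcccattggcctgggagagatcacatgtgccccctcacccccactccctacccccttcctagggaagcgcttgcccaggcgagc
HOXD8, chr2:176129455-176129704, plus strand: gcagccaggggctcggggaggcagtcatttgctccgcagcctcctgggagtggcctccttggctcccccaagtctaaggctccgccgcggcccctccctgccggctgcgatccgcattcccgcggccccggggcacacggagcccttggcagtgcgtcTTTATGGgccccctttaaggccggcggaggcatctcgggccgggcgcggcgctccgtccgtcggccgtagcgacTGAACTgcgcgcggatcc

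Genes that work with or on the HOX clusters were counted in the same way. No probe of these lists was called in either comparison, and the counts that follow are at an unadjusted p under 0.05. For every list they stand beside 13.3% of all tested probes with paraoxon and 7.04% with mipafox, in either direction. Of 11 tested probes for HOX cofactors (PBX, MEIS and PKNOX proteins, which bind DNA with HOX proteins), 1 was higher with paraoxon, MEIS2 at 0.36 (SE 0.13, limma adjusted p = 0.254), and 0 with mipafox. PKNOX2, the next smallest p, was at 0.47 with mipafox (SE 0.21, limma adjusted p = 0.712). Of 17 tested probes for regulators of the clusters, 1 was higher and 1 lower with paraoxon, and 1 was higher with mipafox. CDX1, which activates HOX genes of the trunk, was at -0.52 with paraoxon at probe A_23_P58788 (SE 0.17, limma adjusted p = 0.222), while its other tested probe (A_33_P3289848) was at 0.21 (SE 0.23), so the probes differed in sign. GBX2, a hindbrain factor, was at 0.34 with mipafox (SE 0.14, limma adjusted p = 0.674).

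Of 52 tested probes for Polycomb and Trithorax proteins, which hold HOX genes silent or active, 1 was higher and 3 lower with paraoxon, and 0 were higher and 2 lower with mipafox. A probe of MLL3 (A_33_P3321275) was at -0.42 with each compound (SE 0.15, limma adjusted p = 0.258 and 0.597), while another probe of the gene (A_33_P3301306) was at 0.32 with paraoxon. MLL was at -0.39 with mipafox at probe A_33_P3390570 (SE 0.15, limma adjusted p = 0.658). Its 4 other tested probes were at -0.12 (A_24_P136402, SE 0.31), -0.47 (A_33_P3390576, SE 0.38), -0.62 (A_33_P3350343, SE 0.41) and 0.43 (A_33_P3307307, SE 0.25). A_33_P3350343 was well above background on only 3 arrays, with mipafox A at -8.31, and A_24_P136402 on 6. The fold changes of these dim probes are not usable. Of 12 tested probes for genes at the cluster edges, 0 passed with paraoxon and 1 with mipafox, CALCOCO1 at 0.56 (SE 0.24, limma adjusted p = 0.695), and SMUG1, the next smallest p, was at -0.35 with paraoxon (SE 0.24, limma adjusted p = 0.593). Of 15 tested probes for retinoic acid response genes, 1 was lower with paraoxon, and with mipafox 1 was higher and 1 lower. The lower count in each comparison was a probe of TGM2 (A_32_P86763), a transglutaminase that retinoic acid induces. It was well above background on the 3 control arrays and on 0 of the exposed arrays, so it was tested only through control. Its place among the lower counts therefore rests on that filter. The size of its difference is not usable (limma adjusted p = 0.283 with paraoxon and 0.304 with mipafox). Another probe of the gene (A_24_P923251) was at -0.46 with paraoxon (SE 0.22) and -0.36 with mipafox (SE 0.22), and was well above background on 7 arrays. STRA6, the retinol transporter, was at 0.34 with mipafox (SE 0.15, limma adjusted p = 0.709).

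Between the outermost HOX probes of the 4 clusters lay 36 other probes, 19 of them for long intergenic non-coding RNAs. Of the 36, 11 were well above background on all 9 arrays and 17 on none. The probe of HOXA11-AS1, which runs antisense to HOXA11, was on 0 arrays. HOTAIR is a non-coding RNA of the HOXC cluster, and the only probe of that name (A_32_P168442) was on 0 arrays. Of the 6 minus-strand probes counted here in the HOXC cluster, that one included, 3 were on all 9 arrays (A_19_P00329806, A_19_P00330464 and A_19_P00326808) and 3 on none. The files name the other 5 as long intergenic RNAs, and a probe at 0 arrays does not show that the HOTAIR locus was silent. HOXB13-AS1, antisense beside HOXB13, was on 9 arrays, at 0.02 with paraoxon (SE 0.28) and -0.15 with mipafox (SE 0.28). Of the 14 that were tested, 2 had an unadjusted p under 0.05 with paraoxon, beside 13.3% of all tested probes, and 0 with mipafox, beside 7.04%. They were long intergenic probes in the HOXB cluster (A_19_P00812956, -0.77, SE 0.31, limma adjusted p = 0.320) and in the HOXD cluster (A_19_P00811824, -0.68, SE 0.27, limma adjusted p = 0.323). Both were dim. The first was not well above background on paraoxon C and mipafox A, so it was tested only through control. The second was not well above background on paraoxon B and C. The lowest value was that of paraoxon C for each, -7.78 and -7.05, so the size of these fold changes is not usable.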

How the data were processed

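NT2 RNA was labelled with Cy3 and hybridised to Agilent arrays, 3 per treatment. The deposited files hold the scanner output of each array as the authors' Agilent Feature Extraction 10.5.1.1 made it, with linear spot intensity values already background-corrected. The authors' deposited table of processed log2 values was used as an alternative only. Outlier spots were dropped, and the log2 processed signal minus the 75th percentile of the array was averaged per probe. A probe entered the limma fit (version 3.58.1, R 4.3.3) where all 3 arrays of some treatment had it well above background. The fit used the 9 arrays with a mean for each treatment, and p-values were adjusted by Benjamini-Hochberg over the whole table. Precision is limited by having 3 arrays a treatment. The code was tested on simulated data.

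HOX probes were named in full if called, if among the 10 smallest unadjusted p under 0.05, if the brightest of a paralog group 1 gene or of the most 5′ gene detected per cluster, or if probes of a gene differed in sign with 1 at p under 0.05. No gene met the last, and the values of 1 gene are not reported here. For other lists the 2 members of smallest p were named. The members and lists were chosen with earlier results of these data known. Alternatives were quantile normalization, normexp correction, the authors' values, other filters, slide and replicate blocks, fewer arrays, another variance model, array weights, outlier spots kept, 1 probe per gene, and each array left out. Figures were drawn with matplotlib.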

Additional observations from a re-analysis of the deposited data

How the results depend on the processing

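No HOX probe was called under any of the 23 alternatives. HOX probes at an unadjusted p under 0.05 numbered 3 in each comparison. With no filter on dim probes there were 5 with paraoxon and 5 with mipafox, of 43 tested (11.6%, beside 11.1% and 6.45% of all probes). With array weights there were 5 and 9 of 26 (19.2% and 34.6%), below the 29.9% and 37.5% of all probes. Leaving out 1 array gave 3 to 4 with paraoxon (11.1% to 15.4%, beside 9.2% to 15.2% of all probes) and 1 to 5 with mipafox. The mipafox count was 1 without control A, control B or mipafox B (beside 8.19%, 3.76% and 4.01% of all probes). It was 5 of 27 (18.5%) without mipafox A, beside 12.9% of all probes. All probes called numbered 0 in each comparison. For paraoxon they were 74 with normexp, 1 with slide as a block, 278 with the mipafox arrays out of the fit, 671 with array weights, 1 with 1 probe per gene, and 0 to 276 with 1 array left out, the highest without mipafox A (93 without mipafox B, 1 without mipafox C). For mipafox they were 6 with slide as a block, 821 with array weights, 12 with quantile normalization and slide as a block (chosen after seeing the data), and 0 to 82 with 1 array left out, the highest without mipafox A. The HOX median was 0.28 for paraoxon and 0.26 for mipafox with slide as a block, and 0.19 and 0.19 with quantile normalization as well. It ranged from -0.08 to 0.06 for paraoxon and from -0.09 to 0.17 for mipafox with 1 array left out. The cause of these moves was not tested.

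HOXD8 with paraoxon passed an adjusted p of 0.05 in limma under normexp (0.0464), with the mipafox arrays out of the fit (0.0375), with array weights (0.00221) and without mipafox A (0.0295), and ranged from 0.00221 to 0.595 over the alternatives, with a log2 fold change between -0.94 and -0.68. With array weights HOXD8, HOXA5 and HOXB1 passed an adjusted p of 0.05 in both comparisons. They were the only HOX probes to do so with paraoxon, and 3 of 4 with mipafox. That setting put 29.9% of all probes with paraoxon and 37.5% with mipafox under an unadjusted p of 0.05. HOXD8, HOXA5 and HOXB1, picked for their p-values in these data, kept their direction under all 23 alternatives, which reuse the same arrays. None of the values that reversed passed the test. HOXD1 with quantile normalization and slide as a block was -0.15 with paraoxon and -0.16 with mipafox, and with mipafox it was -0.15 with array weights and -0.067 to 0.18 with 1 array left out. HOXA10 with mipafox ranged from -0.22 to 1.101 with 1 array left out. HOXB13 was 0.57 with paraoxon and 0.24 with mipafox with slide as a block, 0.56 and 0.26 with quantile normalization as well, 0.049 with paraoxon without control C, paraoxon B and mipafox C, and -0.058 to 0.034 with 1 array left out. HOXC13 with paraoxon was 0.065 with the authors' values, 0.14 without those 3 arrays, and -0.27 to 0.11 with 1 array left out.

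The replicate letters did not pair the arrays: correlations of same-letter deviations ranged from -0.60 to 0.57. With the replicate letter as a block, 3 HOX probes had an unadjusted p under 0.05 with paraoxon (11.5%, beside 12.5% of all probes). With mipafox there were 4 (15.4%, beside 6.56%), and 0 were called in either comparison. The number of HOX genes detected, 24, was 25 to 29 under the other detection rules. Probes near background have no usable fold change.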
